A study of Mus musculus with 2 samples.

Results

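Transcript models that read assembly placed outside every annotated gene were described in mouse urinary bladder. Members were the models of the deposited mm9 assembly whose span overlapped no Ensembl gene span on either strand, whose reproducibility value (iIDR) was under 0.1 and whose mean of both deposited RPKM values was at least 1. They were thus selected on place, iIDR and level, of which the last 2 are measured values. RPKM is a read count scaled to model length and library size. Of 84068 assembled models, 27624 overlapped no gene, and 200 of these met the level and reproducibility limits. The 200 members were 0.724% of the intergenic models and 3.97% of the 5044 assembled models of any place that met both limits.

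The study holds 1 group, adult bladder of C57BL/6J mice at 8 weeks of age, with 2 libraries numbered as biological replicates 2 and 1. Per the labels, the tissue came from littermates of both sexes, both libraries name 1 donor entry, and the number of animals per library is not given in the sources used here. The libraries were stranded and paired-end, from polyadenylated RNA over 200 bases depleted of ribosomal RNA. Replicate 2 held 105057347 estimated gene fragments and replicate 1 held 99367453. Markers of smooth muscle (Acta2, 8508 and 8841 TPM), superficial urothelium (Upk1a, 2342 and 1612 TPM), basal urothelium (Krt5, 365.6 and 362.6 TPM) and fibroblasts (Dcn, 2679 and 2371 TPM) were all detected in replicates 2 and 1, in that order. TPM is a transcript abundance scaled to length and to the library total. With 1 group there is no contrast between conditions, and every result below is a description without a test. Spread between the libraries may be partly technical.

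Models outside annotated genes can be long noncoding RNAs, unannotated first or last exons of known genes, RNA of pseudogenes, or sequence of repeated families to which reads of other loci map. Processed pseudogenes are copies of messenger RNA that were inserted into the genome without introns. Splice junction reads, which cross from 1 exon to the next, give a structure that does not rest on read depth alone. The annotation that chose these members was Ensembl release 65, so a locus that was annotated later counts as intergenic here.

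Members were set beside the later GENCODE M21 annotation (GRCm38) by structure, since positions of the 2 assemblies were not converted. A model was matched when an intron of it had exactly the length of an annotated intron in a gene on the same chromosome and strand. That gene had to overlap the stretch spanned by the member's neighbours, the nearest genes to either side, and could be a neighbour itself. How often lengths match by chance was not examined. Of 196 members with neighbours placed in M21, 122 had a later gene of their strand between those neighbours. That alone does not place the gene at the member. Members without an intron of at least 50 bases could not be matched by structure. Of the 44 members with such an intron, 8 were matched, and none of the matched genes was in the deposited mm9 gene table. The matched genes all lay between the neighbours. No share over other models is given beside these counts, so they do not show that members match more often than usual. The sequences below span annotated exon-exon joins of 5 of these genes, from the M21 transcripts, and are shown because each join carries an intron length found in a member. In each, 30 bases of the upstream exon are in lower case and 30 bases of the downstream exon are in capitals. All 5 genes lie on the minus strand, and the sequences read 5′ to 3′ along the transcript.
Gm32772, intron chr7:17306965-17316955: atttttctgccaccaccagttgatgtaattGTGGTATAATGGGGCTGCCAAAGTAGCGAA
Gm32772, intron chr7:17289328-17306880: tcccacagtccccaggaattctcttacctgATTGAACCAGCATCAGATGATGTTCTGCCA
Gm32772, intron chr7:17287844-17289279: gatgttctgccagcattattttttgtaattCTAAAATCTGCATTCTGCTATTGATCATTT
Gm32846, intron chr7:17392951-17396461: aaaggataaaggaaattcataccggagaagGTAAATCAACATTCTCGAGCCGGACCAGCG
Gm46430, intron chr13:74607736-74609121: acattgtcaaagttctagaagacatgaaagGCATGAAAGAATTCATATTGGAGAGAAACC
Gm43305, intron chr14:54293534-54297280: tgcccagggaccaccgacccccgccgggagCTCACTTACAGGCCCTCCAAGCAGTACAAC
Gm28729, intron chr9:96517792-96519400: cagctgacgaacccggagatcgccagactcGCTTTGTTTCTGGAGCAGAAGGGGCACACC
Gm28729, intron chr9:96514593-96517642: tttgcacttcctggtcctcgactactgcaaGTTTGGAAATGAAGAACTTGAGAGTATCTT

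Model CUFF.37991 (mm9, chromosome 7, 17872900 to 17902371, minus strand) shared 3 of its 6 introns with Gm32772, a long intergenic noncoding RNA gene annotated between Psg29 and Ceacam5. Psg29 belongs to the pregnancy-specific glycoproteins and Ceacam5 to the carcinoembryonic antigen family of cell adhesion molecules. CUFF.37991 had 9.56 RPKM1 and 17.8 RPKM2. Its introns of 9991, 17553 and 1436 bases, in the order of the first 3 sequences, carried 274, 150 and 1611 junction reads. The neighbouring CUFF.37997 (17976962 to 17981853, minus strand) had 2.33 RPKM1 and 2.84 RPKM2 and shared 1 of 2 introns with Gm32846, a long intergenic noncoding RNA gene between the same neighbours. That intron, of 3511 bases, carried 1026 reads. Both of these loci had spliced reads in both of the read numbers given per junction: 530 (R1) and 1081 (R2) at the intron of 1436 bases, and 453 and 573 at the intron of 3511 bases. Other junctions of this region, described below, had alike numbers: 1575 reads over 1438 bases and 1014 over 3524 bases. Whether the same reads were counted at several of these places was not tested. The labels tie neither R1 and R2 nor RPKM1 and RPKM2 to a replicate.

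Model CUFF.52253 (chromosome 9, 96405534 to 96426283, minus strand) shared 6 of its 7 introns with Gm28729, a predicted protein-coding gene between Rnf7 and Rasa2. Its RPKM values were 2.45 and 2.73, and its 6 matched introns carried 437, 708, 647, 532, 721 and 658 reads. Gm28729 was listed in the later mm10 tables with 20.8 TPM in replicate 2 and 21.6 TPM in replicate 1, a log2 ratio of -0.05 (replicate 2 over replicate 1, on log2 of TPM plus 0.5). Model CUFF.58122 (chromosome 10, 127985172 to 127986370, minus strand) shared all 3 introns with Rpl41, a protein of the large ribosomal subunit. The introns of 228, 268 and 114 bases carried 3444, 976 and 248 reads, while its RPKM values were 0.990 and 1.71. Besides Rpl41, 1 other M21 gene of this stretch also had an intron length in common with CUFF.58122.

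The TPM of Rpl41 was 1999 in replicate 2 and 2330 in replicate 1, a log2 ratio of -0.22. The ratio of the mm9 RPKM mean to the mm10 TPM mean was 0.000624 for the Rpl41 model and 0.122 for the Gm28729 model. Over 13930 Ensembl genes of at least 1 TPM that ratio had a median of 0.158, with 5th and 95th percentiles of 0.0854 and 0.267, so 1 RPKM in these tables is a higher level than 1 TPM. The Rpl41 model lay far below that range and the Gm28729 model within it. Rpl41 has many pseudogenes in the genome, and how the authors counted reads with several places is not given in the sources used here. Its part in the low RPKM was not tested. Neither gene differed 2-fold between libraries, against 1.58% of the 14533 genes whose libraries averaged 1 TPM or more.

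The remaining 4 matches rested on 1 intron each. CUFF.71250 (chromosome 13, 74742586 to 74746781, minus strand) had 1.31 RPKM1 and 1.51 RPKM2, and its intron of 1386 bases, with 101 reads, has the length of one in the long intergenic noncoding RNA gene Gm46430. CUFF.74860 (chromosome 14, 54912577 to 54917222, minus strand) had 1.75 and 1.57 RPKM, and its intron of 3747 bases, with 96 reads, was matched to Gm43305, a processed transcript. CUFF.87989 (chromosome 17, 56690876 to 56693061, minus strand) had 1.10 and 1.61 RPKM, and its intron of 452 bases, with 323 reads, was matched to Gm20219, annotated as protein coding. CUFF.66997 (chromosome 12, 88186786 to 88187458, minus strand) had 2.85 and 2.51 RPKM, and its gap of 207 bases, with 35 reads, was matched to Gm10095, annotated as a processed pseudogene. A single shared length is weaker ground for identity than 3 or 6, and all introns of the model were shared in 3 of the 8 cases, CUFF.58122, CUFF.71250 and CUFF.87989.

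The members were short and mostly unspliced beside models that overlap genes. Their median span was 600.5 bases (quartiles 312.75 and 1225.25, range 101 to 303140), against 17885 bases for the 4844 gene-overlapping models at the same limits. For the intergenic models left out it was 833 bases. The length covered by exons had a median of 490 bases in members, 3631 bases in gene-overlapping models and 802 bases in the intergenic models left out. In all, 138 members spanned under 1 kb and 19 spanned over 10 kb. More than 1 exon was listed for 100 members (50%), against 88.6% of gene-overlapping models and 23.3% of the intergenic models left out. Many listed gaps between exons were too short to be introns: of 646 gaps within members, 496 were of 1 to 3 bases, 555 were under 20 bases and 82 were of at least 50 bases. Counting only gaps of at least 50 bases, 44 members (22.0%) had an intron, against 84.4% of gene-overlapping models and 7.70% of the 27424 intergenic models left out. The members with the most listed exons show this. CUFF.74334 on chromosome 14 listed 40 exons and no gap of 50 bases, CUFF.58122 listed 36 with 3 such gaps, and CUFF.89969 on chromosome 18 listed 29 with 3.

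Of the 82 introns, 68 coincided to the base with a deposited splice junction, 44 of them with at least 10 reads and 18 with 1 or 2. Models and junctions come from the same libraries, so this match is not independent support. In terms of members, 41 of 44 had an intron with a junction of any read number, and 23 had one with at least 10 reads. No such count over other models is given here, so whether these shares are high or low cannot be told. Close versions of an intron were counted separately: in CUFF.85178 an intron from 6617047 had 1240 reads and one from 6617048 had 0. Of 19 introns longer than 10 kb, 13 had fewer than 10 junction reads at exactly their ends. The 3 longest members had such introns. CUFF.70857 (chromosome 13, 68229770 to 68532909, plus strand) had 1.37 and 2.72 RPKM, and its introns of 362, 205808 and 94563 bases carried 1, 0 and 5 reads. A junction of 206050 bases within this model, close to its longest intron but with other ends, had 15 reads (6 and 9). CUFF.89461 (chromosome 18, 8415117 to 8656981, plus strand) had 1.04 and 1.09 RPKM, with 87 reads at an intron of 161029 bases and 0 at one of 79729 bases. CUFF.49504 (chromosome 9, 41517207 to 41716379, minus strand) had 1.74 and 1.18 RPKM and 0 reads at its only intron, of 198845 bases. Of these 3 members' long introns, 1 had more than 10 reads at exactly its ends.

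**Figure D1:**
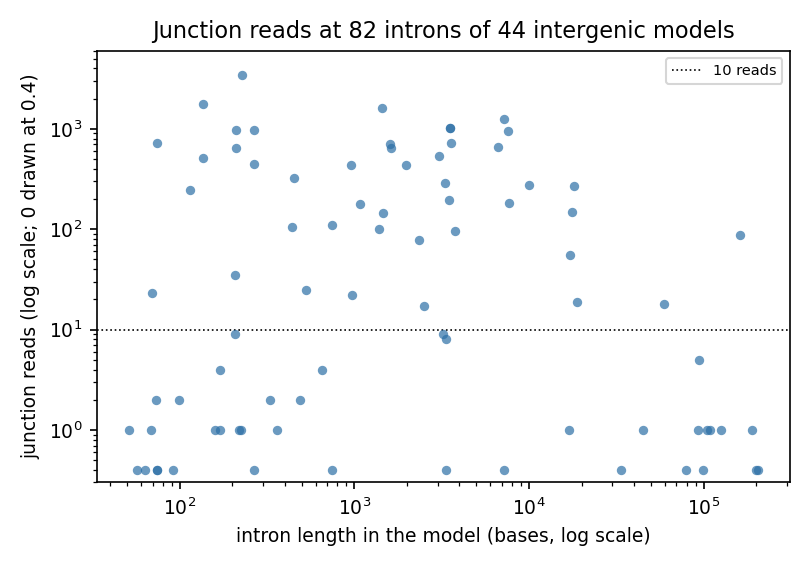
Junction reads (vertical axis, log scale, 0 drawn at 0.4) against intron length in bases (horizontal axis, log scale) for the 82 introns of 44 members, each point an intron and the dotted line at 10 reads. Of the 19 introns longer than 10 kb, 13 lie under the line.

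Members lay on the strand of their nearest gene in 129 of 200 cases (64.5%), against 57.4% of the intergenic models left out. That excess depended on the level limit: the share was 58.7% of 363 models at 0.5 RPKM and 53.3% of 45 at 5 RPKM. By place, 75 of the 200 members (37.5%) were downstream of a gene on its strand, 54 (27%) upstream on its strand, 39 (19.5%) downstream on the opposite strand and 32 (16.0%) upstream on the opposite strand. In the models left out those shares were 37.6%, 19.9%, 17.2% and 25.3%. The downstream share on the same strand was alike in both sets, and the upstream shares differed most. Within 5 kb of a gene, 45 of 58 members (77.6%) were on its strand, against 5823 of 9990 models left out (58.3%). The 58 are not all separate loci, since several belong to a run beside the Gsdmc genes, described below. In that run CUFF.78618, CUFF.78619, CUFF.78631 and CUFF.78633, among others, lay upstream on the strand of their gene. CUFF.78622, CUFF.78623 and CUFF.78624 of the run lay on the opposite strand. The median distance to the nearest gene was 12781.5 bases (quartiles 4273 and 52419) in members and 9122.5 bases in the models left out. Within 1000 bases of a gene lay 19 members (9.5%), against 10.95% of the models left out. Within 500 bases lay 17 members (8.5%), against 6.06%, so the direction close to genes turns with the cutoff. Beyond 100 kb lay 31 members (15.5%), against 9.03%.

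The nearest gene had a mean under 1 RPKM for 124 members (62%), against 52.9% of the intergenic models left out. It was listed at 0 in both values for 60 members (30%), against 19.8% of the models left out. These genes include short RNA genes and pseudogenes. The nearest gene was below its member's level for 146 members, which were selected on their level. Contigs of read coverage on the member's strand bridged part of the gap between members and genes under 5 kb apart. The median covered share of the gap was 39.0% for the 28 members downstream on the same strand and 56.9% for the 17 upstream on the same strand. It was 0% for both opposite-strand classes, of 5 and 8 members. Several of the 17 belong to the run beside the Gsdmc genes. In 4 members the gap was covered to at least 90%: CUFF.62276 (100%, 4317 bases upstream of Dhx40), CUFF.58122 (100%, 341 bases upstream of Zc3h10), CUFF.78630 (100%, 218 bases upstream of Gsdmc3) and CUFF.849 (90.1%, on chromosome 1). CUFF.62276 (chromosome 11, 86625516 to 86629612, minus strand), with 11.8 RPKM1 and 23.0 RPKM2, was above Dhx40, at 3.30 and 3.76 RPKM.

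**Figure D2:**
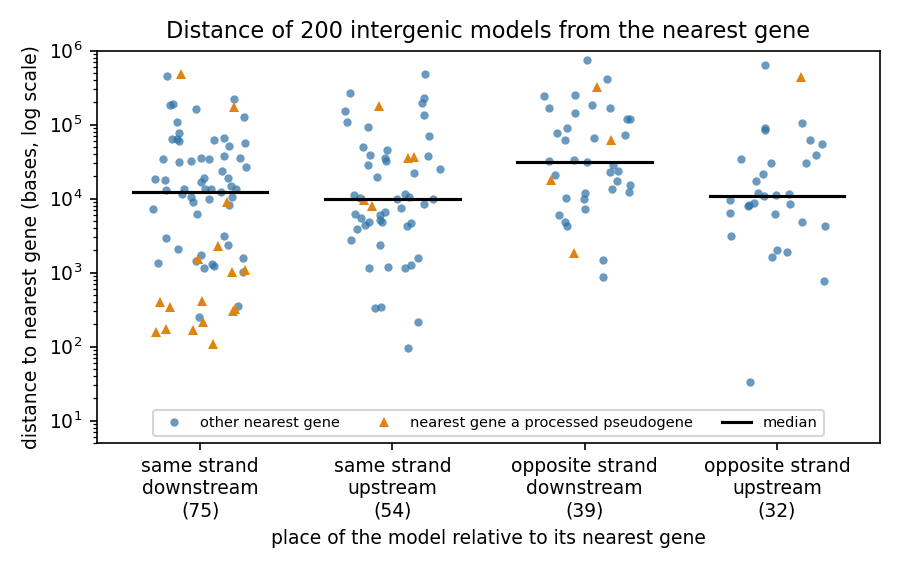
Distance in bases (log scale) of each of 200 members to its nearest Ensembl gene, by place relative to that gene, with orange triangles where the gene is a processed pseudogene and bars at the medians. Of the 12 members within 500 bases downstream on the same strand, 10 follow a processed pseudogene.

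Over all 200 members, the nearest gene was a processed pseudogene for 27 (13.5%), against 10.2% of Ensembl genes. Among the few members close behind a gene on its strand, most followed one. Of the 12 members within 500 bases downstream of a gene on its strand, 10 (83.3%) had a processed pseudogene as that gene and none had a protein-coding gene. Of the 682 models left out in the same place, 5.87% had a processed pseudogene and 79.8% a protein-coding gene. All models left out had a median level of 0.0184 RPKM, so the 2 sets differ in level. The 10 members had no intron, spanned 213 to 703 bases, lay 108 to 408 bases behind the pseudogene and had means of 1.22 to 6.27 RPKM. Their RPKM1 was 0.845 to 1.31 times their RPKM2. Same-strand contigs covered at least 90% of the span in 7 of the 10, and 0% in CUFF.84362. CUFF.92660 (chromosome 19, 6592099 to 6592493, minus strand) lay 108 bases behind Hmgb1-ps4, a copy of the chromatin protein gene Hmgb1, with 2.54 and 2.24 RPKM against 0.822 and 0.848 RPKM for the pseudogene. CUFF.84362 (chromosome 16, 91113903 to 91114115, minus strand) lay 318 bases behind H3f3a-ps2, a copy of a histone H3.3 gene, with 4.24 and 3.23 RPKM against 13.5 and 12.9 RPKM. CUFF.8348 (chromosome 2, 36245339 to 36245554, plus strand), behind Gm13430, had 6.24 and 6.30 RPKM against 0.234 and 0.270 RPKM. Of the 10 members, 4 were above their pseudogene and 6 below it. Whether their reads come from the parent genes was not tested.

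The levels of members were low with a few very high exceptions. The mean had a median of 2.23 RPKM (quartiles 1.41 and 4.73), 92 members were under 2 RPKM, 27 reached 10 RPKM and 9 reached 100 RPKM. These levels chose the members and are given as a description. The highest was CUFF.848 (chromosome 1, 24621723 to 24681637, minus strand), with 1371 RPKM1 and 869 RPKM2. It lay 95 bases from ENSMUSG00000090378, which had 1203 RPKM1 and 840 RPKM2, and CUFF.849 (24622837 to 24623065, within its span) had 130 and 79.3 RPKM. As background, this stretch of chromosome 1 is known to hold a nuclear copy of mitochondrial DNA. Whether the reads of these models come from the mitochondrial genome was not tested.

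Between the same neighbours, Gm10222 and Lmbrd1, M21 lists 5 unprocessed pseudogenes on the same strand, Gm28438, Gm28437, Gm10925, Gm28661 and Gm29216. In the mm10 tables they held 1060 to 8489 TPM in replicate 2 and 1575 to 11900 TPM in replicate 1, with Gm29216 highest in both. The single intron of CUFF.848, of 59274 bases, carried 18 reads, 15 (R1) and 3 (R2).

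Many of the other high members had RPKM1 far above RPKM2. CUFF.91558 (chromosome 18, 68851709 to 68852022, plus strand) had 656 RPKM1 and 108 RPKM2. CUFF.31868 (chromosome 6, 3150761 to 3151741, plus strand) had 505 RPKM1 and 31.5 RPKM2. CUFF.7457 (chromosome 2, 22600245 to 22600717, minus strand) had 310 and 26.9 RPKM, so these 3 differed by 6.05, 16.0 and 11.5 times. CUFF.95720 (chromosome X, 31635672 to 31635807, minus strand) had 201 and 30.6 RPKM. CUFF.92212 (chromosome 18, 85867338 to 85867741, minus strand) had 192 and 37.0 RPKM, and no contig of its strand covered it. The other 3 of the 10 highest were close to equal: CUFF.33932 (chromosome 6, 66825313 to 66825814, minus strand) had 165 RPKM1 and 188 RPKM2, CUFF.67682 (chromosome 12, 111132571 to 111133372, minus strand) had 96.8 and 113 RPKM, and CUFF.55155 (chromosome 10, 45595096 to 45595708, plus strand) had 68.7 and 89.0 RPKM. CUFF.67682 had 2 listed exons and CUFF.92212 had 13, and none of these 8 models had a gap of 50 bases.

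Among all members, RPKM1 was at least 3 times RPKM2 in 25 (12.5%), against 1.67% of the 5044 assembled models at the same limits. RPKM2 was at least 3 times RPKM1 in 3 members (1.5%), against 0.397% of those models. The fold of the 25 ran between 3.07 and 34.5 with a median of 5.20, their median span was 333 bases and 5 had an intron. In 9 of them RPKM2 was under 1, so RPKM1 alone carried them past the level limit. The 5044 models include the members. Over all 200, RPKM1 was higher in 109 and RPKM2 in 91, and 124 members agreed within 1.5-fold. The larger value was a median 1.32 times the smaller in members and 1.21 times in gene-overlapping models. Gm42418, a gene that overlaps ribosomal RNA sequence, had 826 TPM in replicate 2 and 11508 TPM in replicate 1. Its relation to the members with high RPKM1 was not tested, since no label ties an RPKM value to a library.

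**Figure D3:**
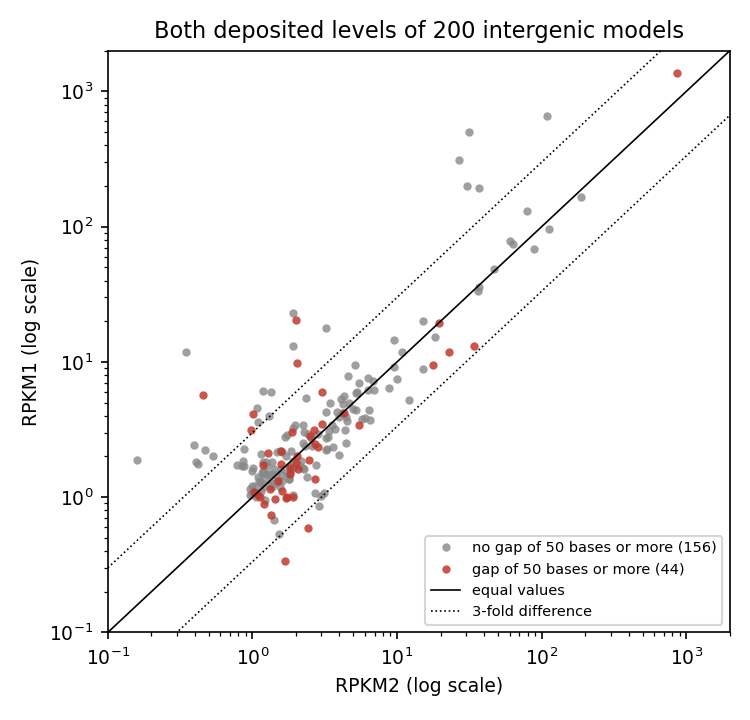
RPKM1 against RPKM2 of the 200 members on log axes, in red where a model has a gap of at least 50 bases, with the line of equal values and dotted lines at a 3-fold difference. Above the upper dotted line lie 25 members, and 3 lie below the lower one.

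Around the level limit, members and models just left out had alike values. The 5 just inside were CUFF.94550 (0.535 RPKM1 and 1.54 RPKM2), CUFF.34145 (1.00 and 1.05), CUFF.43235 (1.88 and 0.159), CUFF.78551 (0.337 and 1.69) and CUFF.50070 (1.05 and 0.959), with means of 1.003 to 1.04 RPKM. The 5 just outside, CUFF.57038, CUFF.56565, CUFF.85179, CUFF.46708 and CUFF.13001, had means of 0.977 to 0.996 RPKM. The reproducibility limit removed no intergenic model at this level: the highest iIDR in the assembly was 0.034, and it was 0 in every member.

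Some members lay close together. Runs of 2 or more on 1 strand with under 50 kb between neighbours held 44 members in 16 runs, and the 4 runs of at least 3 held 20. The run with the most members was on chromosome 15, with 10 on the minus strand between 63668655 and 63707340, around Gsdmc2, Gsdmc3 and the pseudogene Gsdmcl1. Gasdermins form membrane pores after cleavage by proteases, and the mouse has several copies of the C subfamily side by side. Gsdmc2 had 54.5 RPKM1 and 104 RPKM2, and Gsdmc3 had 17.8 and 33.4 RPKM. In TPM, Gsdmc2 had 701 in replicate 2 and 379 in replicate 1.

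The 10 members of this run had means of 1.13 to 23.4 RPKM, and RPKM2 exceeded RPKM1 in all 10, as in both genes. All 10 were covered by same-strand contigs over at least 90% of their span, as were 135 of all 200 members. CUFF.78624 (63676042 to 63677219), the highest, had 13.0 and 33.8 RPKM. CUFF.78618 (63668655 to 63669380), 1150 bases upstream of Gsdmc2, had 3.69 and 6.54 RPKM, and CUFF.78623 (63674227 to 63675711) had 3.87 and 6.01 RPKM. The lowest, CUFF.78620, had 1.10 and 1.15 RPKM.

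Spliced reads joined 6 of these members to Gsdmc2. The 9 junctions with at least 10 reads held 7575 reads, and in all 9 the intron reached to 63667503, next to the annotated start of the gene at 63667504. CUFF.78623 was joined to it by an intron of 8206 bases with 4268 reads (1257 and 3011), and CUFF.78624 by one of 9131 bases with 2407 reads (820 and 1587). Introns of exactly these lengths occur in M21 transcripts of Gsdmc2. The other 7 junctions, with 54 to 265 reads, matched no M21 intron of the gene. Among them CUFF.78619 (63670310 to 63671957) had 265 reads, and CUFF.78633 (63704729 to 63705117), which lies upstream of Gsdmc3, had 261 reads over an intron of 37288 bases. CUFF.78633 also had 282 reads over a shorter intron, of 3934 bases, from 63700857, beside the annotated start of Gsdmc3 at 63700852. CUFF.78631 had 64 reads over 34837 bases to Gsdmc2 and 73 reads over 1483 bases to that position beside Gsdmc3. CUFF.78624 also held an intron of 135 bases with 1766 reads. The gasdermin C genes are near copies of each other, so the split of reads between them is uncertain.

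**Figure D4:**
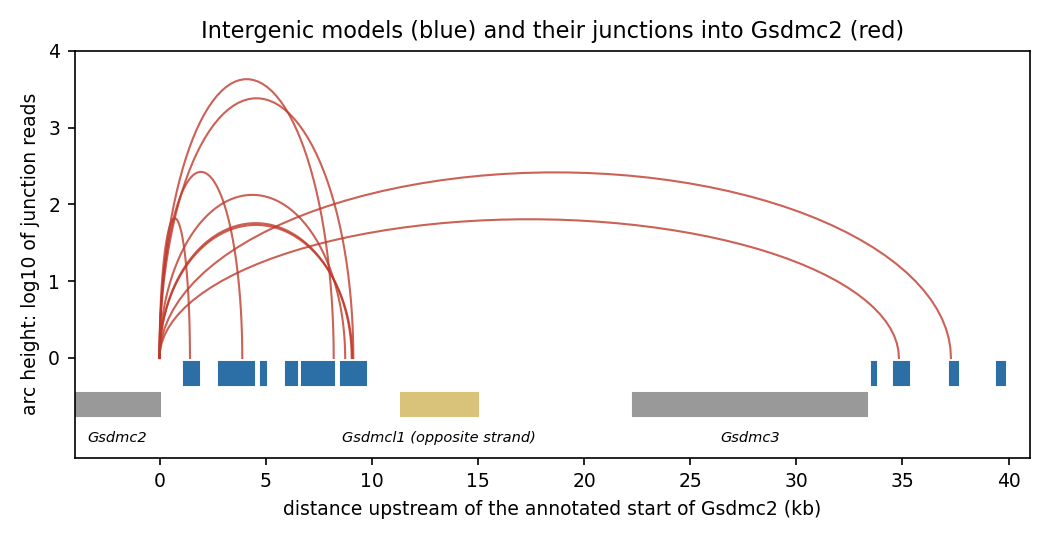
Distance upstream of the annotated start of Gsdmc2 in kb (horizontal axis) for the 10 members (blue boxes) and the neighbouring genes (grey, or yellow on the opposite strand), with red arcs for the 9 junctions into Gsdmc2 and arc height the log10 of reads. The 2 highest arcs, of 4268 and 2407 reads, come from CUFF.78623 and CUFF.78624.

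Outside this run, 3 members were joined to a gene by a junction of at least 10 reads. CUFF.85178 (chromosome 17, 6616945 to 6627855, plus strand), with 1.09 and 1.03 RPKM, had 4 junctions with 862 reads in all to Tmem181a, about as far away in each: the introns were 338762 to 343547 bases long. It also had introns of its own of 7202 bases with 1240 reads, 1975 bases with 433 reads and 1468 bases with 144 reads. Tmem181a has near copies on this chromosome, so the long junctions are uncertain. CUFF.71250, the member matched to Gm46430, had 40 reads to Zfp825 over 127971 bases, and CUFF.9869 had 10 reads to Olfr1033, an olfactory receptor gene.

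On chromosome 7, a run of 4 and a run of 2 members on the minus strand lay between 17867764 and 18009092. Same-strand contigs covered at least 90% of the span in 1 of the 6. The span includes introns, and 4 of the 6 had an intron. All 6 had higher RPKM2 than RPKM1, and their nearest genes, Psg29 and ENSMUSG00000084614, 37579 to 71794 bases away, had means of at most 0.000205 RPKM. Besides CUFF.37991 and CUFF.37997 these were CUFF.37988 (1.88 and 2.47 RPKM), CUFF.38000 (8.88 and 15.05 RPKM), CUFF.38002 (1.80 and 2.01 RPKM) and CUFF.38003 (1.19 and 1.55 RPKM). CUFF.38002 (17983558 to 18009092) touched 13849 junction reads, the most of any member, ahead of CUFF.78624 with 11447, CUFF.37991 with 9661, CUFF.58122 with 4810 and CUFF.78623 with 4469.

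The 6 models formed 2 groups, of which the left ended at 17902371 and the right began at 17976962, with alike junctions. CUFF.37991 had an intron of 1436 bases with 1611 reads, and CUFF.38000 was joined to CUFF.38002 by one of 1438 bases with 1575 reads. CUFF.37988 had an intron of 3524 bases with 1014 reads, and CUFF.37997 one of 3511 bases with 1026 reads. Junctions between the groups had alike numbers: 1329 reads between CUFF.37991 and CUFF.38002 over 110607 bases, and 992 between CUFF.37988 and CUFF.37997 over 112693 bases. Some pairs had both read numbers equal. From 18009092, at the edge of CUFF.38002, introns to 18037276 and to 18112904 each had 583 and 1027 reads.

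Of 103 junctions with at least 100 reads that touched a member, 20 had a partner with 1 shared end and the same 2 read numbers, all on chromosomes 7 and 15 and touching 4 members. In the gasdermin run such a pair joined CUFF.78624 over 317 and 33699 bases with 225 and 675 reads each. Whether 1 read was counted at more than 1 of these junctions was not tested.

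**Figure D5:**
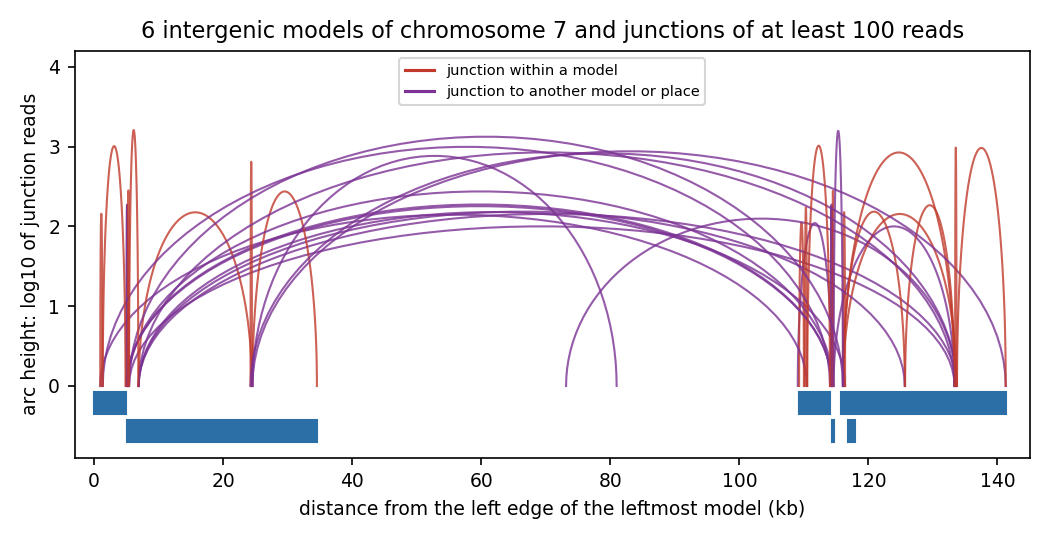
The 6 members of chromosome 7 (blue boxes, in 2 rows for clarity) by distance in kb from the left edge of the leftmost, with the 40 junctions of at least 100 reads between their outer edges as arcs whose height is the log10 of reads. Red arcs (18) lie within a model and purple arcs (22) join it to another model or place, many of them bridging both groups.

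The remaining runs of 3 were on chromosome 6 (128710729 to 128753183, minus strand), beside the natural killer receptor genes Klrb1b and Klrb1c, and on chromosome 7 (135156381 to 135186442, minus strand), beside Trim72 and Gm22809. In the first, CUFF.36473 had 6.24 and 6.96 RPKM, CUFF.36475 had 3.18 and 3.72 RPKM and CUFF.36471 had 3.26 and 1.92 RPKM. None of these 6 models had an intron of at least 50 bases.

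At the extremes of distance, the nearest member to a gene was CUFF.96145 (chromosome X, 61530205 to 61530307, plus strand), 33 bases upstream of Slitrk4 on the opposite strand, with 11.9 RPKM1 and 0.346 RPKM2, the highest ratio of all members at 34.5. CUFF.848 at 95 bases and CUFF.92660 at 108 bases followed. The farthest was CUFF.65482 (chromosome 12, 48820870 to 48914341, plus strand), 740827 bases from Gm1818, with 3.04 and 1.88 RPKM and 1 read at its intron of 93108 bases. CUFF.92212 lay 651236 bases and CUFF.34138 (chromosome 6, 75246216 to 75247339, minus strand) 485012 bases from a gene, and CUFF.34138 had 15.2 and 18.4 RPKM. By chromosome, members were most numerous on chromosomes 1 (19 of 1837 intergenic models) and 15 (16 of 1174). The 16 on chromosome 15 include the gasdermin run of 10. Chromosomes 4 and 16 had 4 each, of 1563 and 1280 intergenic models, and Y had 0 of 18.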

How the data were processed

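Polyadenylated RNA of mouse bladder was sequenced in 2 libraries. The authors deposited mm9 tables of assembled models (Cufflinks, per the file headers) and of Ensembl genes (release 65, 74620 lines for 37310 genes, each taken once), with 2 RPKM values and an iIDR as attributes, junction read counts summed over both libraries, and contigs with a coverage signal, of which coordinates were used. Per library, the authors deposited expected counts and TPM (maximum likelihood and posterior mean) on mm10, per the file headers. The sources used here name no aligner or counting tool.

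Overlap, nearest gene, place, exon gaps, junction matches and structural matches were computed in Python 3.11.15 with pandas 2.3.3, numpy 2.4.6 and scipy 1.17.1. The interval steps were tested on simulated spans (500 models, 200 genes) with 0 errors. Gene types and sequences come from GENCODE M21 (GRCm38), and no coordinate was converted between builds. Nearest genes were found in M21 for 173 of 200 members. Members, lists and settings were chosen with earlier results of these data known. Members named are the 10 of highest level, the 3 longest, the 3 with most exons, the 3 nearest and farthest, the 5 with most junction reads, those at the limits and those matched by structure. Others (members of runs, joined to genes or behind pseudogenes) were chosen after their values were seen. No test was made.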

Additional observations from a re-analysis of the deposited data

How the results depend on the processing

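No paired analysis was possible because the study holds 1 group. Of 54 alternative values, 42 stayed near the main value and 12 moved. Near meant within 1.5 times for counts and medians and within the 95% Clopper-Pearson interval for shares. For the log2 ratio of the libraries it meant within the spread between them. The interval treats members as independent, though 44 lay in runs, and the alternative sets share members with the main one. It is a working limit and measures no spread between libraries. Values at an iIDR under 0.01 could not move, since iIDR was 0 in every member. The library ratio without a filter equals the main one, and all library ratios rest on 2 genes. The count of 42 is therefore no measure of robustness. A mean of at least 0.5 or 5 RPKM in place of 1 gave 363 or 45 members. At 5 RPKM, 40.0% had more than 1 listed exon and 53.3% lay on the strand of their nearest gene. Requiring 5 kb free of genes moved the median distance to 30988.5 bases. Allowing overlap on the opposite strand gave 46.6% on the same strand, a median distance of 6103 bases and 27.1% downstream on the same strand, since overlapped genes then count as nearest. Taking the nearest gene among those of at least 1 RPKM moved the median distance to 59450 bases. Counting only gaps of at least 50 bases, an alternative chosen after seeing the data, gave 22.0% with an intron. Junctions of at least 10 reads coincided with an intron in 52.3% of spliced members, against 93.2% with any read. Requiring every intron to match left 3 matched members.

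Leaving out RPKM2 or RPKM1 in turn gave 206 and 203 members, 47.6% and 51.2% with more than 1 listed exon, median spans of 505.5 and 686 bases, 63.6% and 65.02% on the same strand, median distances of 13260.5 and 13435 bases, and 36.9% and 40.9% downstream on the same strand. Requiring both values at 1 or more, also chosen after seeing the data, left 171 members. The comparison of libraries at 2 matched genes could not be repeated without a library. Precision is limited by 2 libraries that share a donor entry.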
